A study of Mus musculus with 6 samples.

Results

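The transcript abundance of 2 clones of immortalised mouse B cells, Abl.3 and Abl.4, was compared for the genes of the autosomes. Genes entered when their mean over the 6 libraries of the series was at least 1 TPM (transcript abundance scaled to transcript length and to the library total). This held for 10510 of the 32769 autosomal genes and of the 37315 genes in the whole table. The gene just inside the threshold was Rprm at a mean of 1.0 TPM, and the gene just outside was Gm9034 at 0.997 TPM. All cells were 129S1/SvImJ x CAST/EiJ F1, were kept in growth medium with 1% DMSO as the control treatment and were collected on day 2. Abl.3 is labelled male, and Abl.4 is labelled female, as is the remaining clone, Abl.2, whose levels are given alongside. Each line is 1 clone with 2 library preparation replicates, so the tests measure the spread between libraries, and a difference between the clones cannot be told apart from one between the sexes. The comparison asks how far clones of the same cross, in the same control condition, differ in the levels of their genes.

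Lines of this kind are early B-cell precursors held in a dividing state by the Abelson oncogene, a mutated viral form of the tyrosine kinase gene Abl1. B-cell precursors are built by a network of transcription factors (Ebf1, Pax5, Tcf3, Ikzf1) that switch on the pre-B cell receptor and the recombination enzymes. Signals from the pre-B cell receptor and from cytokine receptors then set growth, survival and the next steps of maturation. The metabolism of such cells serves growth, through glycolysis, nucleotide and amino acid synthesis and the respiratory chain.

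The 11 defining B-cell markers, among them Cd79a, Cd79b, Pax5, Ebf1, Vpreb1, Igll1, Rag1, Rag2, Ms4a1 and Ptprc, were all detected, and their summed level was between 12362 and 13413 TPM in the 4 libraries of Abl.3 and Abl.4. The markers of T and natural killer cells, erythroid cells and myeloid cells gave lower sums, and those of plasma and stromal cells are given further on. The 18 T and natural killer cell markers summed to 1.02 and 1.69 TPM in Abl.3 and to 7.61 and 8.85 TPM in Abl.4, with 10 of them at 0 in all 4 libraries. The 12 erythroid and megakaryocyte markers summed to between 1.62 and 3.55 TPM, with 5 at 0. The 19 myeloid markers summed to between 79.9 and 100.8 TPM, of which Lyz2 alone gave between 70.8 and 96.5 TPM, and 9 were at 0. In bulk RNA, fewer cells of a type and less RNA per cell cannot be told apart. The depth behind the TPM values is unknown. Counts at heterozygous SNPs, from the same libraries, totalled between 18362319 and 20005324 per library.

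A gene was called when limma, fitted on log2(TPM + 1), gave an adjusted p below 0.05 and the clones differed by at least 1 on that scale, on which differences of low genes are understated. Of the 10510 genes, 252 (2.4%) were called higher in Abl.3 and 714 (6.79%) higher in Abl.4. In all 966 the libraries of the clones did not overlap. The median difference of all tested genes was -0.14 (Abl.3 minus Abl.4), and with each library scaled to a median of 0 the calls were 328 and 553. The share of calls that were higher in Abl.3 was 26.1% as tested, 37.2% after median scaling, 44.4% after quantile normalisation (397 and 497 calls), 39.3% after correction for transcript length (324 and 500). With edgeR and DESeq2 on the allelic counts, which change the data, the tool and the genes tested together, it was 35.7% and 36.1% (315 and 567, 304 and 538 calls). Differences of at least 3 were found for 35 genes higher in Abl.3 and 78 higher in Abl.4. Protein-coding genes made up 879 of the 966 calls and 9814 of the genes tested.

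**Figure D1:**
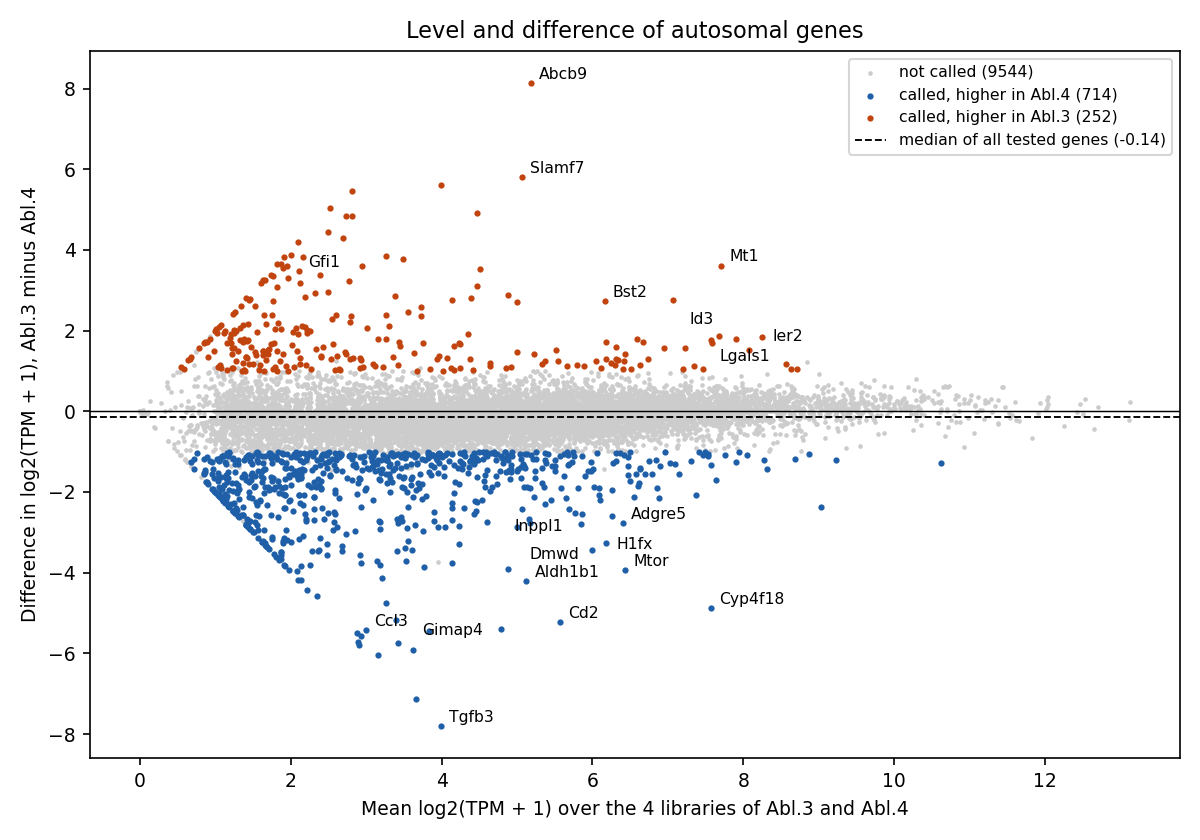
Each point is 1 of 10510 autosomal genes, with the mean log2(TPM + 1) over the 4 libraries on the x axis and the difference between the clones (Abl.3 minus Abl.4) on the y axis. The 252 genes called higher in Abl.3 and the 714 called higher in Abl.4 are coloured, and the dashed line is the median of all tested genes at -0.14, below the solid line at 0.

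The strongest contrasts among well-expressed genes were near on-off differences. Abcb9, which encodes a lysosomal peptide transporter related to the TAP transporters (chr5:124061530-124095798), was at 625.4 and 595.5 TPM in Abl.3, at 1.95 and 0.59 TPM in Abl.4 and at a mean of 0.665 TPM in Abl.2. The mean in Abl.3 was 481 times that in Abl.4, a difference of 8.14 ± 0.27 (SE) with a limma adjusted p of 1.39e-05. Almost all of its allelic counts in Abl.3 were maternal, at a share of 0.998 in both libraries. Slamf7, a receptor of the SLAM family found on plasma and natural killer cells (chr1:171632403-171653035), was at 248.8 and 250.4 TPM in Abl.3 against 3.14 and 3.82 TPM in Abl.4, a 71.7-fold difference. Only Abl.3 had Slamf7 above 100 TPM, since Abl.2 was at 17.2 and 21.5 TPM.

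Further genes among the largest positive differences at high level were Mt1, Bst2, Id3, Ier2 and Lgals1. Bst2, the membrane protein tetherin that holds back budding virus, was at 186.4 and 181.1 TPM against 28.8 and 24.8 TPM. Lgals1, the glycan-binding protein galectin-1, was at 415.6 and 482.8 TPM against 127.2 and 128.0 TPM. Lgals1 was at 2.8 and 3.91 TPM in Abl.2, so that both clones compared here were far above the remaining one. Id3 and Ier2, described with their groups below, were 3.65-fold and 3.61-fold higher in Abl.3.

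In the other direction, Cd2, an adhesion receptor of lymphocytes (chr3:101275899-101287939), had the largest difference among genes with a mean log2(TPM + 1) of at least 5. It was at 7.46 and 6.2 TPM in Abl.3 and at 288.2 and 291.0 TPM in Abl.4, a 42.4-fold difference (-5.22 ± 0.12, adjusted p = 2.71e-06), and at 1.11 and 1.27 TPM in Abl.2. Cyp4f18, a cytochrome P450 that acts on leukotriene B4 (chr8:71988482-72009626), was at 34.0 and 33.9 TPM against 1117 and 940 TPM, with Abl.2 between the clones at 185.2 and 174.7 TPM. Aldh1b1, a mitochondrial aldehyde dehydrogenase, was at 8.1 and 6.27 TPM against 161.1 and 136.9 TPM.

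Mtor, the kinase that couples nutrients and growth signals to protein synthesis (chr4:148448611-148557683), was among these genes. Its level was 21.6 and 20.3 TPM in Abl.3 and 344.3 and 329.9 TPM in Abl.4, a 16.1-fold difference (-3.95 ± 0.080, adjusted p = 2.36e-06), while Abl.2 was at 28.3 and 29.7 TPM. Abl.4 thus stood apart from both other clones. Both alleles contributed in each of the clones compared. The maternal share was 0.457 ± 0.037 (SD over the 2 libraries) in Abl.3, and 0.499 ± 0.0081 in Abl.4. The protein-coding gene annotated across Mtor on the opposite strand, Angptl7, was at no more than 0.52 TPM in any library. Inppl1, the inositol phosphatase SHIP2, was at 22.1 and 19.6 TPM in Abl.3 against 148.5 and 153.9 TPM in Abl.4. Adgre5, the adhesion receptor CD97, was at 33.7 and 29.3 TPM against 239.8 and 202.9 TPM. Adgre5 overlaps Ddx39, which was above 330 TPM in every library, and reads of overlapping genes cannot be told apart in unstranded libraries. H1fx, a linker histone variant, was 10.0 times lower in Abl.3, and Dmwd, a WD-repeat gene, 11.5 times lower.

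**Figure D2:**
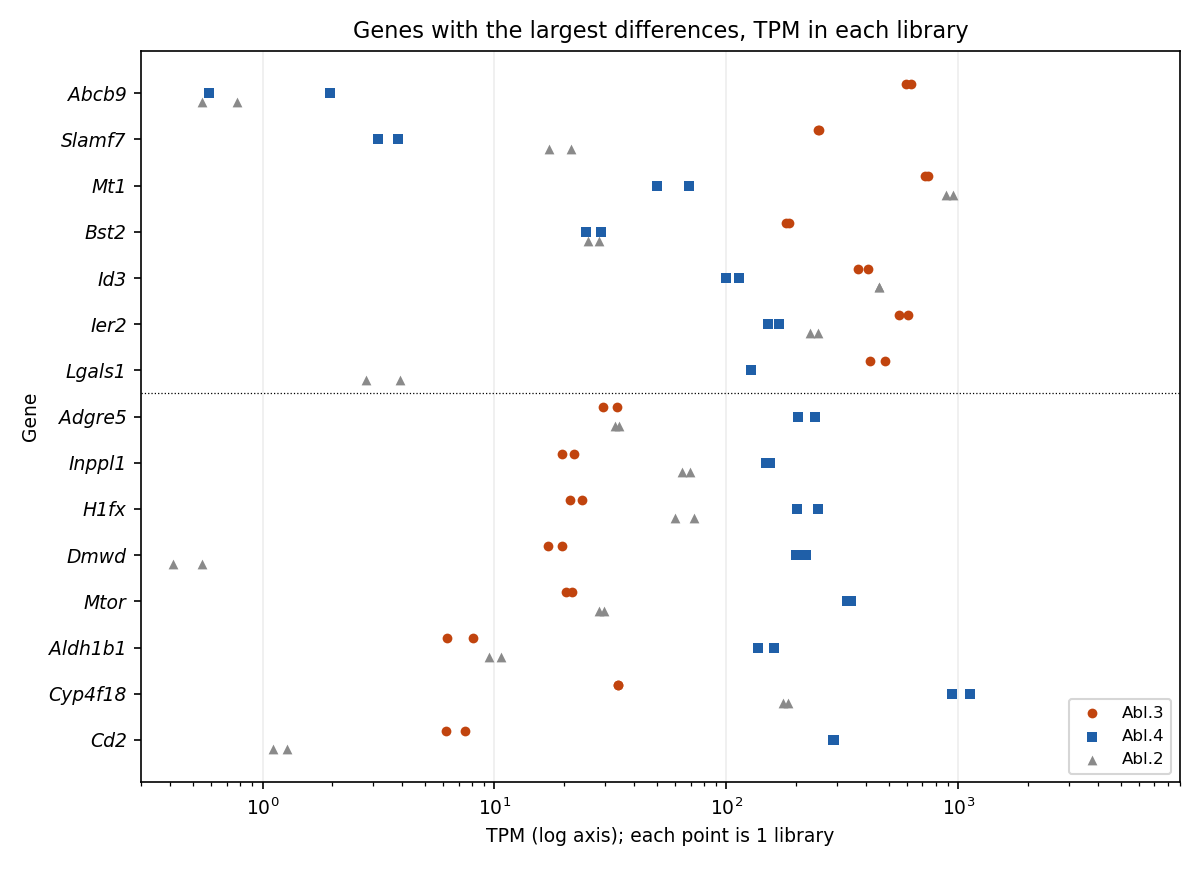
TPM on a log axis in each of the 6 libraries for 15 of the well-expressed genes with the largest differences, 7 higher in Abl.3 and 8 higher in Abl.4, with circles for Abl.3, squares for Abl.4 and triangles for Abl.2. In every row the libraries of Abl.3 and Abl.4 do not overlap. Abl.2 lies below both clones for Cd2, Dmwd and Lgals1 and above both for Mt1 and Id3.

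In 25 gene lists for B-lineage identity, signalling, antigen presentation and metabolism, with the Gimap GTPases, 705 distinct genes were tested. Of these, 29 were called higher in Abl.3 and 57 higher in Abl.4. Over all 10510 genes the calls were 252 (2.4%) and 714 (6.79%), and the share of each list below is to be read beside these. The lists differed in how many members were called. By number alone, surface markers held the most, followed by immediate early, homing and survival genes. The lists ranged from 8 to 68 tested genes, and some members entered only through the clone where they were high. This order is therefore a description. The respiratory chain, cholesterol, pentose phosphate, Notch and MHC class II lists held none by limma as tested.

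The core transcription factors of the B lineage were not called, apart from Pax5, and a smaller set around them was. Of 34 tested, 2 (5.88%) were called higher in Abl.3 and 4 (11.8%) higher in Abl.4, with a list median of -0.34 beside -0.14 for all genes. After length correction both medians were 0.05. Tcf3 (554.3 and 502.6 TPM against 604.3 and 520.9 TPM), Foxo1, Spi1, Myb and Lef1 had differences between -0.09 and 0.17. Ebf1, which specifies the lineage, had a difference of -0.37, and Ikzf1, the zinc finger factor Ikaros, one of -0.98, just short of the minimum. Pax5, which commits precursors to the B lineage (chr4:44524757-44710487), was at 56.2 and 64.0 TPM in Abl.3, 155.9 and 165.4 TPM in Abl.4 and 226.3 TPM on average in Abl.2 (difference -1.41 ± 0.11, adjusted p = 0.00027). After correction for transcript length the Pax5 difference was -0.94, and with edgeR on the allelic counts -0.66, both under the minimum.

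Bach2, a repressor that guards early B cells (chr4:32238804-32586108), was at 30.2 and 24.97 TPM in Abl.3 and at 76.9 and 93.5 TPM in Abl.4. Mef2c, a MADS-box factor of B-cell development, was at 15.9 and 16.5 TPM against 45.7 and 50.3 TPM. The paired repressors Gfi1 and Gfi1b differed in opposite directions. Gfi1 (chr5:107716657-107726036) was at 15.2 and 11.8 TPM in Abl.3 and at 0.34 and 0.26 TPM in Abl.4, a difference of 3.47 ± 0.24 (adjusted p = 0.000146). Gfi1b (chr2:28609450-28621982) was at 8.72 and 9.53 TPM against 51.5 and 43.4 TPM, a difference of -2.25 ± 0.14 (adjusted p = 9.33e-05). Abl.2 resembled neither extreme for Gfi1b, at 19.7 and 16.2 TPM, and was low for Gfi1, at 1.28 and 0.54 TPM. Id3, which blocks the DNA binding of E proteins such as Tcf3 (chr4:136143497-136145755), was at 408.8 and 367.6 TPM in Abl.3, at 112.9 and 99.98 TPM in Abl.4 and at 455.5 and 456.9 TPM in Abl.2. Here Abl.4 was the clone that stood apart. With DESeq2 on the allelic counts of Id3, at most 11 per library, the difference was -0.49 (adjusted p = 0.841).

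Genes of the pre-B cell receptor itself were not called. Igll1 and Vpreb1, the surrogate light chain, had differences of 0.35 and 0.30, and the receptor's signalling chains Cd79a and Cd79b of -0.28 and -0.54. No member of this list was called higher in Abl.3 by limma as tested, and 2 of 20 (10%) were called higher in Abl.4. At an unadjusted p below 0.05, 4 members were higher in Abl.3, and edgeR and DESeq2 on the allelic counts each called 1. Limma also called 1 higher in Abl.3 after quantile normalisation and 1 after length correction. Dntt, the polymerase that adds bases at recombined joints (chr19:41029275-41059523), was at 1.05 and 1.73 TPM in Abl.3 against 12.5 and 12.4 TPM in Abl.4. The recombination enzymes had differences of opposite sign. Rag1 was at 4.39 and 5.34 TPM against 9.84 and 12.9 TPM, and Rag2 at 43.4 and 46.5 TPM against 23.6 and 26.3 TPM (differences -1.07 and 0.82). Rag1 shares its span and strand with B230118H07Rik, which was at 35.3 and 52.7 TPM in Abl.3 and 49.5 and 70.6 TPM in Abl.4. The call of Rag1 was lost without replicate 1 of Abl.3 (-0.95), without replicate 2 of Abl.4 (-0.89) and, with all libraries, under other settings that included quantile normalisation (-0.78), median scaling (-0.93), length correction (-0.64) and edgeR and DESeq2 on the allelic counts (-0.90 and -0.89).

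Surface markers held the most differences of the B-lineage lists. Of 35 tested, 5 (14.3%) were called higher in Abl.3 and 10 (28.6%) higher in Abl.4. Genes such as Ly86, Cd44 and Ms4a1 reached the threshold only through the clone where they were high, here and in other lists, so these counts are a description. Besides Cd2, Ly86, the partner of the toll-like protein RP105 (chr13:37345208-37419036), was listed at 0 in both libraries of Abl.3 and was at 13.7 and 15.1 TPM in Abl.4. Cd44, the hyaluronan receptor, was at 1.01 and 0.86 TPM against 19.3 and 21.5 TPM (-3.47 ± 0.16, adjusted p = 2.85e-05). In Abl.2 all of Cd2, Ly86 and Cd44 were below 1.3 TPM, and each was highest in Abl.4. The remaining genes called higher in Abl.4 were Cd93, Cd22, Cr2, Cd38, Cd24a, Cd72 and Cd52, with differences between -2.23 and -1.05. Of these, Cd22, an inhibitory co-receptor of the B-cell receptor, was at 20.6 and 18.3 TPM against 100.03 and 84.7 TPM. Cd72 and Cd52 passed the minimum narrowly and had -0.98 and -0.94 after length correction. With edgeR on the allelic counts Cd24a and Cd72 had -0.85 and -0.79, under the minimum, and 8 of the list were called higher in Abl.4 with edgeR and with DESeq2.

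The markers called higher in Abl.3 included Bst2, Ms4a1, Cd48 and Cd69. Ms4a1, which encodes the mature B-cell antigen CD20, was at 6.19 and 6.09 TPM in Abl.3 and at 0.37 and 0.36 TPM in Abl.4, a difference of 2.39. Cd48, a SLAM-family ligand, was at 126.4 and 121.0 TPM against 45.4 and 53.9 TPM, and Cd69, an early activation antigen that holds lymphocytes in tissue, at 618.4 and 584.6 TPM against 268.8 and 315.1 TPM. Cd69 had a difference of 1.04, and of 0.96 after quantile normalisation. Among markers that were not called, the interleukin-7 receptor gene Il7r had a difference of -0.08 and Ptprc (CD45) -0.83.

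Homing and adhesion genes were called in both directions. Of 23 tested, 2 (8.7%) were called higher in Abl.3 and 6 (26.1%) higher in Abl.4, with a list median of -0.60, and -0.37 after length correction. Ccl3, an inflammatory chemokine (chr11:83647844-83649355), was at 0 and 0.48 TPM in Abl.3 and at 51.1 and 51.5 TPM in Abl.4. S1pr1, the receptor that guides lymphocytes out of tissue (chr3:115710433-115715072), was at 5.96 and 4.69 TPM against 34.6 and 33.9 TPM, and the orphan-like receptor gene Gpr18 at 9.08 and 7.66 TPM against 53.4 and 47.7 TPM. The integrin genes split. Itgb3, Itgam and Itga6 were lower in Abl.3 by -2.09, -2.09 and -1.42, and Itgal, the alpha chain of LFA-1, was higher by 1.71. Cxcr4, the receptor that keeps precursors in bone marrow, was at 165.8 and 165.0 TPM against 259.1 and 243.4 TPM and was not called (-0.60).

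Few genes of B-cell receptor signalling passed the minimum. The list median was -0.49 over 36 genes, and -0.20 after length correction, where all genes had a median of 0.05. Members called as tested were 1 (2.78%) higher in Abl.3 and 3 (8.33%) higher in Abl.4, close to the shares of all genes. With edgeR, with DESeq2 and after length correction, 3 were called in each direction. Blk, a Src-family kinase of B cells (chr14:63372836-63417037), was at 31.0 and 29.1 TPM in Abl.3, 193.6 and 182.1 TPM in Abl.4 and 2.91 TPM on average in Abl.2 (-2.60 ± 0.091, adjusted p = 1.57e-05). Ptpn22, a phosphatase that restrains Src-family kinases (chr3:103859795-103912247), was at 13.4 and 14.3 TPM against 2.05 and 2.39 TPM, a difference of 2.20. The calcium channel gene Itpr2 was at 54.9 and 54.8 TPM against 162.0 and 163.6 TPM. Lat2, an adaptor, was at 1.52 and 1.27 TPM against 4.84 and 4.33 TPM (-1.22, and -0.93 after quantile normalisation). The kinase Syk and the adaptor Blnk had differences of -0.91 and -0.99 and were not called.

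Abl1 was at 1022 and 960 TPM in Abl.3 and at 914 and 840 TPM in Abl.4 (difference 0.18, adjusted p = 0.138). Reads of the viral oncogene and of the mouse gene share sequence, and their parts were not tested. Of 33 genes of the Abl1, JAK and STAT list, 1 (3.03%) was called higher in Abl.3 and 2 (6.06%) higher in Abl.4, near the 2.4% and 6.79% of all genes. Socs1, a feedback inhibitor of JAK kinases (chr16:10782240-10785536), was at 131.6 and 130.3 TPM in Abl.3, 46.1 and 32.8 TPM in Abl.4 and 166.4 TPM on average in Abl.2. Jak1 was at 125.4 and 124.9 TPM against 260.2 and 280.6 TPM (-1.10, and -0.76 after length correction). Il4ra, the interleukin-4 receptor chain, was at 5.95 and 5.62 TPM against 20.3 and 20.9 TPM. The STAT5 targets Cish, Socs2 and Pim1 had differences of 0.66, -0.13 and 0.41, none called.

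Immediate early genes, which respond to growth signals within minutes, differed in both directions. Of 31 tested in the list of MAPK feedback and immediate early genes, 4 (12.9%) were called higher in Abl.3 and 5 (16.1%) higher in Abl.4. Fos (chr12:85473890-85477273) was at 50.4 and 46.8 TPM in Abl.3 against 177.0 and 151.5 TPM in Abl.4, Fosb at 1.17 and 1.27 TPM against 8.66 and 7.9 TPM, and Jun at 169.3 and 138.8 TPM against 396.5 and 344.8 TPM. Egr1 went the other way, at 273.0 and 244.8 TPM against 85.8 and 85.6 TPM, and so did Junb, Ier2 and Ier3 with differences of 1.06, 1.85 and 1.67. Ier2 (chr8:84661331-84662852) was at 603.8 and 553.0 TPM against 169.0 and 151.1 TPM (1.85 ± 0.091, adjusted p = 3.96e-05). The 2 early growth response genes in the calls thus had opposite signs, since Egr2 was lower in Abl.3 by -1.44. Spred1, an inhibitor of Ras signalling, was at 16.0 and 17.6 TPM against 59.6 and 70.4 TPM.

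In the NF-kB list limma as tested called no gene higher in Abl.3, where 2 had an unadjusted p below 0.05 and edgeR and DESeq2 called 0. After quantile normalisation limma called 1 higher in Abl.3. As tested, limma called 2 of 21 (9.52%) higher in Abl.4, Rel (-1.44) and Nfkbiz (-1.11). After length correction the differences of Rel and Nfkbiz were -0.99 and -0.85. Notch genes numbered 15, and limma called none in either direction, with 2 and 7 at an unadjusted p below 0.05 (higher in Abl.3 and in Abl.4) and 0 calls with edgeR or DESeq2.

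TGF-beta and Wnt genes lay lower in Abl.3 as a list. Limma called none of 28 higher in Abl.3, where no member had an unadjusted p below 0.05 and edgeR and DESeq2 called 0, and it called 6 (21.4%) higher in Abl.4. The list median was -0.66, and -0.28 after length correction. Its members had a median transcript length of 4811 bases beside 3199 bases for all genes, and 2 of the 6 calls were left after length correction. Higher in Abl.4 were also 2 after quantile normalisation, 6 after median scaling and 8 with edgeR and with DESeq2 on the allelic counts. Tgfb3, a ligand of the family (chr12:86056745-86079041), was at 0.06 and 0.07 TPM in Abl.3, at 246.3 and 224.7 TPM in Abl.4 and at 49.2 and 49.1 TPM in Abl.2. That difference, -7.79 ± 0.094 (adjusted p = 5.68e-07), was the lowest of all tested genes. Ttll5, which overlaps Tgfb3 on the opposite strand, was at between 13.5 and 20.8 TPM in the libraries of both clones.

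Eng, a co-receptor for TGF-beta (chr2:32646595-32682669), was at 18.96 and 23.6 TPM in Abl.3 and at 121.2 and 115.3 TPM in Abl.4. No maternal count was found among its 318 and 259 allelic counts in Abl.3, while in Abl.4 the share was 0.495 ± 0.0030 (SD over the 2 libraries). The other 4 calls were Znrf3, Ski, Fzd7 and Smad7, with differences between -1.20 and -1.17 that were between -0.89 and -0.78 after length correction. Znrf3 had -0.92 without replicate 2 of Abl.3. Of the members that were not called, the ligand Tgfb1 had -0.85 and the receptor Tgfbr2 -0.99.

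Interferon-response genes had a list median of 0.10, and of 0.39 after quantile normalisation. Of 41, 3 (7.32%) were called higher in Abl.3, namely Bst2, Rtp4 and Ifit1bl1, and 1 (2.44%) higher in Abl.4, the nucleotide hydrolase gene Samhd1. Under both quantile normalisation and median scaling 6 were called higher in Abl.3, with edgeR 4 and with DESeq2 5. Rtp4, a receptor transporter, was at 6.69 and 5.46 TPM against 0.4 and 1.09 TPM, and Ifit1bl1 at 7.5 and 9.35 TPM against 0.95 and 1.53 TPM. Ifit1bl1 belongs to a family of near copies, and its reads may be split among them. Irf7 and Isg15, broad markers of the response, had differences of 0.36 and 0.39 and were not called.

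Antigen presentation genes were mostly not called. Limma called none of the 15 MHC class II genes, of which 5 and 7 had an unadjusted p below 0.05 (higher in Abl.3 and in Abl.4). With edgeR and DESeq2 on the allelic counts, 2 were called higher in Abl.3 and 1 higher in Abl.4. Limma called 3 higher in Abl.3 after quantile normalisation and 2 after median scaling. The invariant chain gene Cd74 was at 363.3 and 327.9 TPM against 254.8 and 223.7 TPM, and H2-Ab1 at 160.0 and 134.2 TPM against 258.2 and 230.8 TPM. H2-Ab1 was at 0.54 TPM on average in Abl.2, so that for this gene the remaining clone stood apart from both clones compared here. Of 23 class I genes, limma called 1 (4.35%) higher in Abl.4, the transactivator Nlrc5 (-1.01, but -0.93 without replicate 2 of Abl.4 and -0.55 after length correction), and none higher in Abl.3, where 2 had an unadjusted p below 0.05 and edgeR and DESeq2 called 0.

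The Gimap genes, small GTPases of lymphocytes, lie in a cluster on chromosome 6. Of the 25 lists theirs had the lowest median, at -0.85 over 8 genes, and -0.74 after length correction. Limma called 2 (25%) higher in Abl.4 and none higher in Abl.3, where none had an unadjusted p below 0.05 and edgeR and DESeq2 each called 1. Gimap4 (chr6:48684549-48692060) was at 3.52 and 3.03 TPM in Abl.3, at 173.2 and 182.3 TPM in Abl.4 and at 241.7 and 278.2 TPM in Abl.2 (-5.39 ± 0.11, adjusted p = 2.36e-06). Gimap3 was at 1.34 and 0.36 TPM against 10.99 and 10.7 TPM. Their neighbours did not share a difference of that size. Gimap1, Gimap5, Gimap6 and Gimap8 had differences between -0.91 and -0.31, and Gimap9 and Gimap7 of 0.07 and 0.54.

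**Figure D3:**
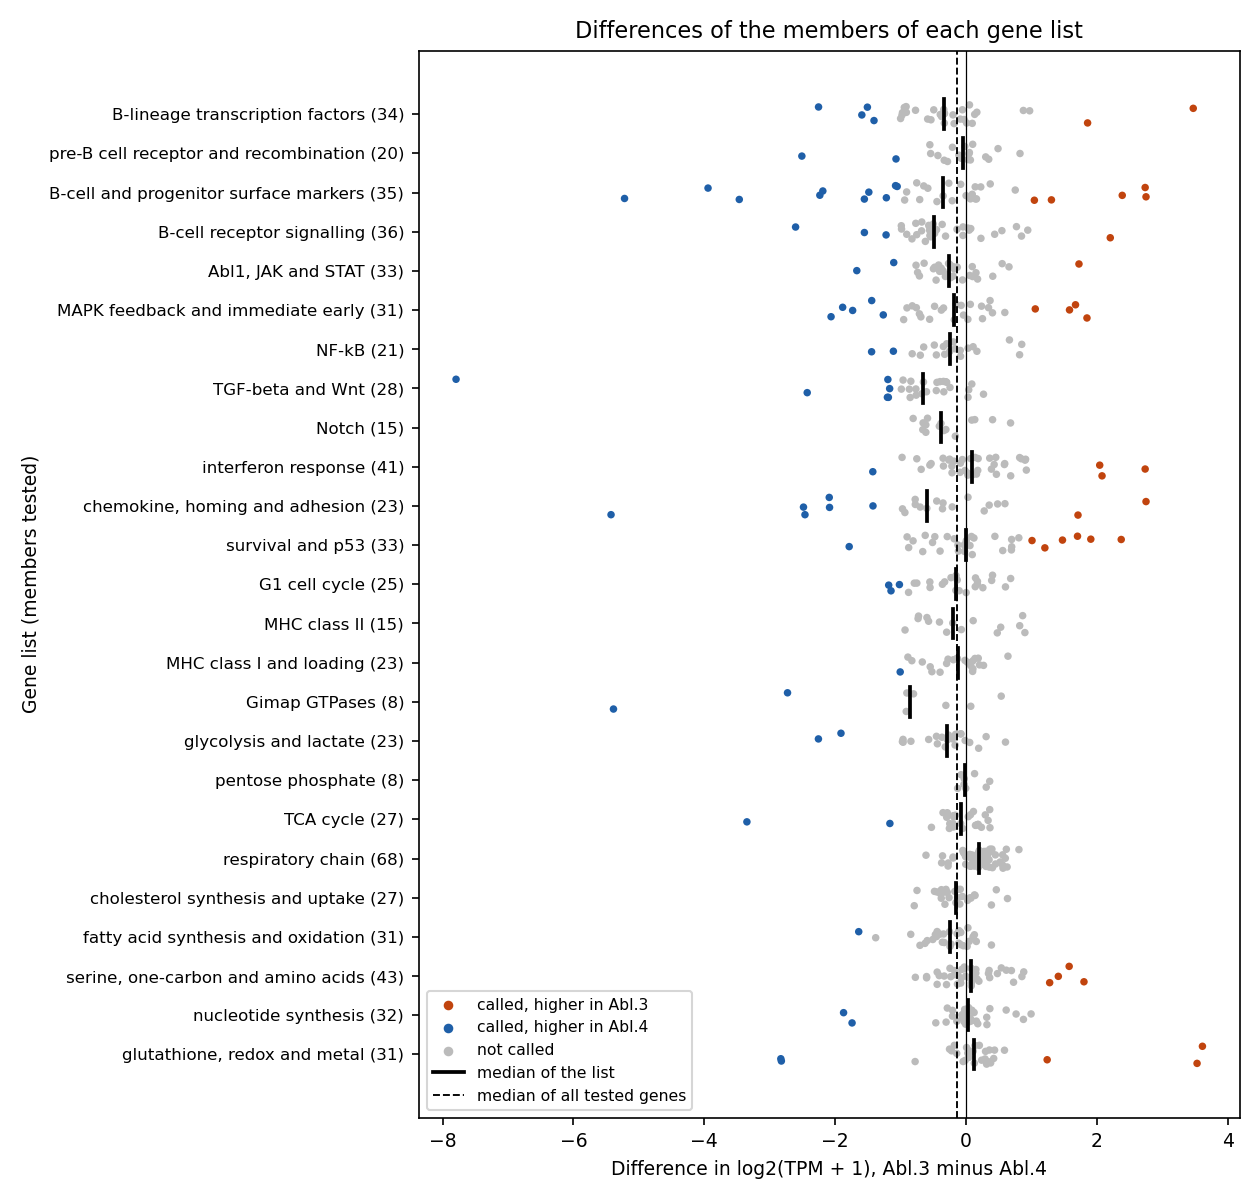
Difference in log2(TPM + 1), Abl.3 minus Abl.4, for every tested member of 25 gene lists (1 point per gene, spread vertically at random within its row), with called genes coloured, the list median as a black bar and the median of all tested genes as a dashed line. The Gimap and TGF-beta medians lie lowest at -0.85 and -0.66, and the respiratory chain genes lie close together around 0.20.

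Among the 25 lists, that of survival and p53 genes had the most limma calls higher in Abl.3. Of 33 genes, 6 (18.2%) were called higher in Abl.3 and 1 (3.03%) higher in Abl.4, with a list median of 0.00. Cdkn1a, the cyclin-dependent kinase inhibitor p21 (chr17:29090976-29100727), was at 332.2 and 357.8 TPM in Abl.3 and at 120.1 and 92.1 TPM in Abl.4 (1.70 ± 0.13, adjusted p = 0.000255). Cdkn2b and Cdkn2a, inhibitor genes side by side on chromosome 4, were at 31.6 and 27.1 TPM against 4.34 and 5.4 TPM and at 9.6 and 10.4 TPM against 3.96 and 2.15 TPM. Abl.2 was near Abl.3 for both, at means of 26.1 and 8.95 TPM. Phlda3, a p53 target that restrains Akt (chr1:135766119-135769136), was at 40.3 and 36.7 TPM against 10.2 and 8.94 TPM, and Gadd45g and Zmat3 had differences of 1.20 and 1.01. Bok, a pro-apoptotic member of the Bcl-2 family, was lower in Abl.3 at 3.03 and 2.99 TPM against 13.6 and 12.1 TPM. Trp53 itself had a difference of -0.02, and Mdm2, also a p53 target, had -0.51. In the G1 list 3 of 25 (12%) were called higher in Abl.4, Ccnd1, Rb1 and Mxd1, with differences between -1.18 and -1.02, and between -0.97 and -0.70 after length correction. Limma as tested called none higher in Abl.3, where 5 had an unadjusted p below 0.05 and edgeR and DESeq2 called 0. After length correction limma called 1 of the G1 list higher in Abl.3 and 0 higher in Abl.4. Ccnd1 was not called with edgeR or DESeq2 on the allelic counts (adjusted p of 0.0700 and 0.177). The call of Rb1 was lost without replicate 2 of Abl.3 or of Abl.4 (limma adjusted p of 0.0855 and 0.0568), and that of Mxd1 without replicate 1 of Abl.3 or of Abl.4 (-0.90 in both). The main cyclin of these cells, Ccnd3, was at 2116 and 1859 TPM against 1356 and 1257 TPM and was not called.

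Calls in central carbon metabolism were near the 6.79% of all genes called higher in Abl.4. Of 23 glycolytic genes limma called 2 (8.7%) higher in Abl.4 and none higher in Abl.3, where none had an unadjusted p below 0.05 and edgeR and DESeq2 called 0. Hk1, a hexokinase that starts glycolysis (chr10:62268855-62379908), was at 26.6 and 21.1 TPM in Abl.3 and at 99.6 and 85.0 TPM in Abl.4. Pdk2, a brake on pyruvate dehydrogenase, was at 0.6 and 0.11 TPM against 7.6 and 3.71 TPM. The abundant enzymes Ldha, Eno1 and Pkm had differences of 0.06, -0.08 and -0.32. In the TCA list 2 of 27 (7.41%) were called, both higher in Abl.4, and limma called none higher in Abl.3, where 6 had an unadjusted p below 0.05 and edgeR and DESeq2 called 0. Aco1, the cytosolic aconitase that also senses iron (chr4:40143081-40198338), was at 1.36 and 0.7 TPM against 19.7 and 19.1 TPM. The clones used opposite alleles of Aco1. Abl.3 had a maternal share of 0.0179 ± 0.0061, and Abl.4 one of 0.999 ± 0.0015 (SD over the 2 libraries). Pcx, pyruvate carboxylase, had -1.16, and -0.97 without replicate 2 of Abl.3 and -0.90 after length correction.

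Of the 68 respiratory chain genes limma called none in either direction, and edgeR and DESeq2 called 0. Their differences were small and mostly of 1 sign, since 56 of 68 were above 0 and the list median was 0.20. At an unadjusted p below 0.05, 29 were higher in Abl.3 and 1 higher in Abl.4. The list's median transcript length was 1094 bases, and after length correction its median was 0.27 beside 0.05 for all genes. Uqcrq, a subunit of complex III, was at 1605 and 1697 TPM against 894 and 992 TPM. Its difference of 0.81 turned to -0.69 with edgeR on its allelic counts, of which it had between 15 and 47 per library. The pentose phosphate and cholesterol lists, of 8 and 27 genes, likewise had no call by limma, edgeR or DESeq2. At an unadjusted p below 0.05 they had 2 and 3 genes higher in Abl.3 and 0 and 9 higher in Abl.4. In the fatty acid list the 1 call among 31 (3.23%) was Cd36, a fatty acid importer, at 1.36 and 1.63 TPM against 6.15 and 7.43 TPM. Higher in Abl.3 limma called none, with 1 at an unadjusted p below 0.05 and 0 calls by edgeR and DESeq2.

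Serine, one-carbon and amino acid genes held 4 calls, all higher in Abl.3 (9.3% of 43), and limma called none higher in Abl.4, where 9 had an unadjusted p below 0.05 and edgeR and DESeq2 called 0. Of the 4, Ddit3, Trib3 and Atf5 encode stress regulators that act with Atf4, and Cth makes cysteine by transsulfuration. Ddit3 (chr10:127290774-127296288) was at 220.4 and 203.3 TPM in Abl.3 against 69.7 and 70.9 TPM in Abl.4, and Trib3 (chr2:152337422-152344032) at 151.4 and 127.8 TPM against 56.1 and 47.7 TPM. Mars, which overlaps Ddit3 on the opposite strand, was at between 270.9 and 370.0 TPM in these libraries. Atf5 was at 16.97 and 16.9 TPM against 3.67 and 4.67 TPM, and Cth at 127.4 and 122.2 TPM against 54.0 and 47.9 TPM, with Abl.2 at 3.36 TPM on average. Atf4 itself and the synthesis genes Phgdh, Psat1 and Asns had differences between -0.12 and 0.48 and were not called. In the nucleotide list 2 of 32 (6.25%) were called higher in Abl.4, the purine enzyme genes Adssl1 (18.04 and 16.8 TPM against 68.7 and 64.0 TPM) and Ampd3 (2.35 and 1.18 TPM against 7.86 and 8.22 TPM). None was called higher in Abl.3 by limma, edgeR or DESeq2, with 7 at an unadjusted p below 0.05 in limma. After quantile normalisation and after median scaling limma called 2, and after length correction 1. Atf5 and Ampd3 overlap Il4i1 and Rnf141 on the opposite strand, as do Eng, Lat2, Gpr18 and Rb1 with Fpgs, Rfc2, Ubac2 and Rcbtb2.

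The metallothioneins Mt1 and Mt2, small proteins that bind zinc and copper and are induced by metals, were the metabolic genes with the largest positive differences. Mt1 (chr8:94179082-94180327) was at 721.3 and 741.3 TPM in Abl.3 and at 50.1 and 69.1 TPM in Abl.4 (3.61 ± 0.14, adjusted p = 2.3e-05). Mt2, its neighbour (chr8:94172664-94173568), was at 72.5 and 79.8 TPM against 4.24 and 7.49 TPM (3.53 ± 0.21, adjusted p = 9.25e-05). Abl.2 was near Abl.3 for both, at 949.7 and 884.1 TPM and at 44.8 and 43.1 TPM. The allelic shares of Mt1 differed between the clones. Abl.3 had a maternal share of 0.0498 ± 0.00036, Abl.4 one of 0.721 ± 0.029 (SD over the 2 libraries) and Abl.2 a mean of 0.971. Mtf1, the metal-responsive factor, and the zinc exporter gene Slc30a1 had differences of 0.30 and -0.18 and were not called. The promoters of both are shown because both genes were called higher in Abl.3 and metallothionein promoters carry metal response elements. The sequences run from 250 bases before to 50 bases after the start of each gene in RefSeq (GRCm38.p6, plus strand, chr8:94178839-94179138 and chr8:94172368-94172667), with capitals for matches to TGCACNC or TGCGCNC on either strand.
Mt1: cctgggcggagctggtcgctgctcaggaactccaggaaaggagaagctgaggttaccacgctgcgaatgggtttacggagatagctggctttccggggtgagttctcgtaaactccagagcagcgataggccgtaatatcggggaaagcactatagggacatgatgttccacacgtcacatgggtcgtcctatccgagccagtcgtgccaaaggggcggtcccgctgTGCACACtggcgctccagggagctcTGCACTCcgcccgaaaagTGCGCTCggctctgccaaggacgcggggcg
Mt2: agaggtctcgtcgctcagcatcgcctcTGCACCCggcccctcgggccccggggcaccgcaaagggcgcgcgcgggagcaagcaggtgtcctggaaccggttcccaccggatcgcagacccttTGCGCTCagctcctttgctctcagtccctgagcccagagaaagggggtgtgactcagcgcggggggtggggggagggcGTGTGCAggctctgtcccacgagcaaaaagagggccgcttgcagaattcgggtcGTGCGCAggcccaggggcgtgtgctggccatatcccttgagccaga
The Mt1 stretch held 3 matches, at -23, 2 and 20 bases from the RefSeq start, so not all lie before it. The Mt2 stretch held 4, at -223, -128, -50 and 4 bases. None overlapped, and other possible starts of the genes were not examined. Of 32851 promoters of the same length, 25.7% held at least 1 match, 1.97% at least 3 and 0.517% at least 4. A match is a description of the letters and not of a bound site.

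The rest of the redox list was called in both directions, with 3 of 31 (9.68%) higher in Abl.3 and 2 (6.45%) higher in Abl.4 when Mt1 and Mt2 are included. Mgst3, a membrane glutathione transferase, was at 62.6 and 62.1 TPM against 24.2 and 27.5 TPM. Gstt1 and Gstt2, neighbouring theta-class transferases on chromosome 10, were lower in Abl.3, at 0.1 and 0.1 TPM against 7.19 and 6.39 TPM and at 4.58 and 2.97 TPM against 32.7 and 32.3 TPM.

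Genes known from other cell types were also among the calls. The plasma cell markers summed to 373.1 and 376.0 TPM in Abl.3 and to 177.6 and 183.3 TPM in Abl.4, and Slamf7 alone accounted for the higher sum in Abl.3. Of the other plasma cell markers, Sdc1 (CD138) was called lower in Abl.3 at 2.82 and 2.84 TPM against 9.74 and 9.74 TPM, and so was Fkbp11, a protein-folding enzyme, by -1.02. Fkbp11 was not called without replicate 1 of Abl.3 (-0.78) or without either library of Abl.4 (limma adjusted p of 0.0505 and 0.0576), and its difference was -0.34 with edgeR on the allelic counts (adjusted p = 0.591) and -0.33 with DESeq2 (adjusted p = 0.800). Pecam1, which endothelial cells and B-cell precursors both express, was at 18.4 and 18.04 TPM against 55.4 and 50.1 TPM and made up nearly all of the stromal and endothelial sum. Fcgr3, Itgam and Klrb1c, from the myeloid and natural killer lists, were higher in Abl.4, at between 5.48 and 6.89 TPM, and at or below 1.05 TPM in Abl.3. The part of other cells in these results was not tested.

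The maternal and paternal alleles were counted apart at SNPs, which gives a readout that did not choose the genes, although it comes from the same libraries. Genes needed 20 or more allelic counts per library in both clones. A clone counted as strongly biased where its maternal share was 0.1 or lower, or 0.9 or higher, and as balanced from 0.3 to 0.7. Of 439 such genes called higher in Abl.4, 45 (10.3%) were strongly biased in Abl.3 and balanced in Abl.4, and 6 (1.37%) were the reverse. Of 136 called higher in Abl.3, 13 (9.56%) were strongly biased in Abl.4 and balanced in Abl.3, and 5 (3.68%) were the reverse. Among 7527 genes that were not called, 43 (0.571%) were strongly biased in Abl.3 alone with Abl.4 balanced, and 41 (0.545%) the reverse. In both directions the larger count was that of genes with the strong bias in the clone with the lower level, and the difference between these counts was not tested. Balanced in both clones were 227 (51.7%) of the 439 and 52 (38.2%) of the 136, beside 6598 (87.7%) of the genes not called.

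Single genes show the sizes involved. Dmwd (chr7:19076227-19082776) was at 19.5 and 17.1 TPM in Abl.3 where 0.951 ± 0.0049 of its counts were maternal, and at 219.9 and 199.0 TPM in Abl.4, where 0.359 ± 0.022 were (SD over the 2 libraries). Eng, described above, fell in the same class. Slamf7, by contrast, was balanced in Abl.3 (0.517 ± 0.0035), where it was high, and had 17 and 37 allelic counts in Abl.4, too few in 1 library for the classes. A level 12.3 times higher went with a nearly single allele for Mt1, and one 481 times higher with a single allele for Abcb9. Strong bias to opposite alleles was found for 5 of the 439 genes, Aco1 among them, 1 of the 136 and 13 of the 7527.

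**Figure D4:**
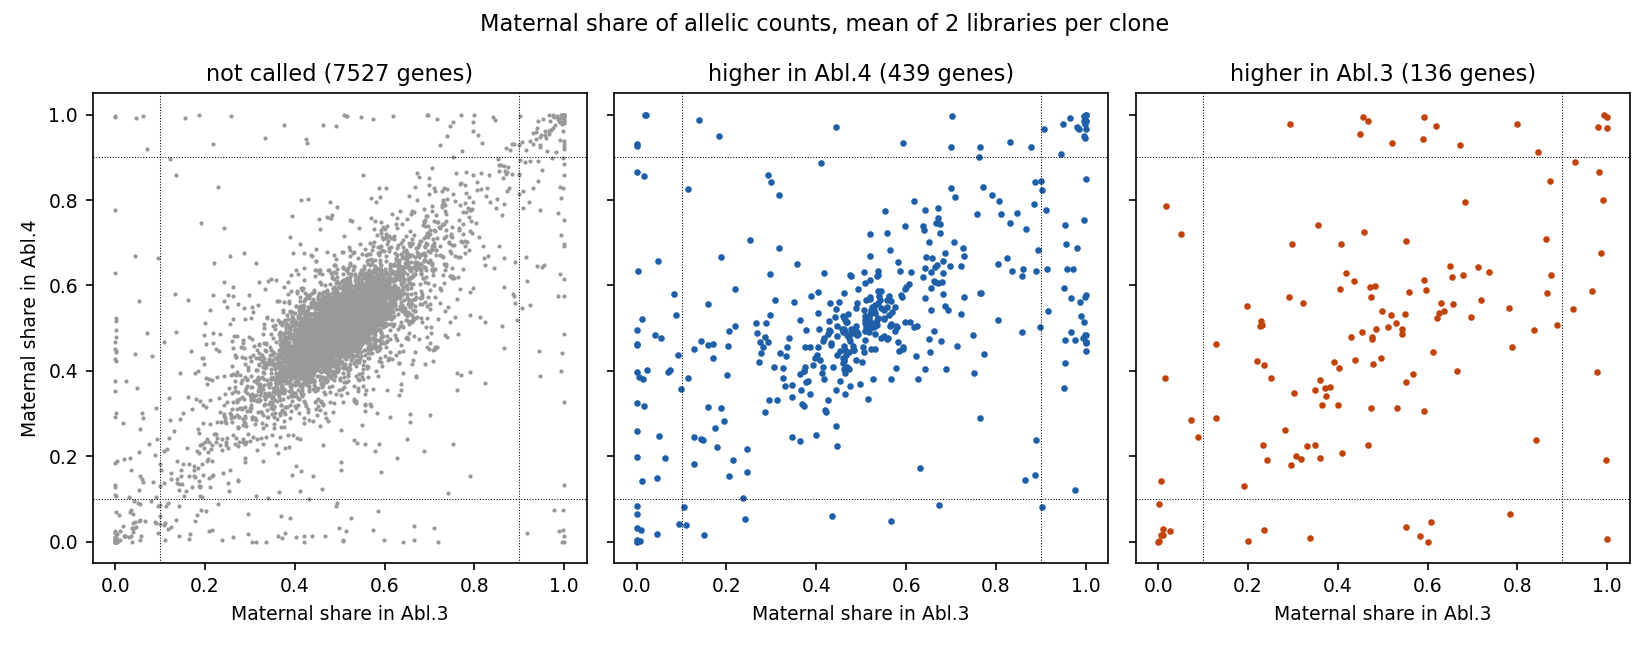
Maternal share of allelic counts in Abl.3 (x axis) and Abl.4 (y axis), mean of 2 libraries, for genes with 20 or more counts per library, in 3 panels for genes not called (7527), called higher in Abl.4 (439) and called higher in Abl.3 (136). Dotted lines mark shares of 0.1 and 0.9. Points in the outer columns at middle height are biased in Abl.3 alone, and they are 10.3% of the genes higher in Abl.4.

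The differences were not spread evenly over chromosomes. Chromosomes 1, 5, 17 and 18 had the 4 highest median differences, between -0.08 and 0.02, and the other 15 autosomes had medians between -0.26 and -0.13. The same 4 chromosomes held the highest medians when either library of Abl.3 or of Abl.4 was used alone, after length correction (0.14 to 0.20 against -0.04 to 0.07) and after quantile normalisation. They were also the 4 whose median maternal share in Abl.3 lay furthest from an equal split of the alleles, at 0.449, 0.451 and 0.454 for chromosomes 1, 5 and 18 and at 0.550 for chromosome 17. In Abl.3 the other autosomes were between 0.492 and 0.508, and in Abl.4 all 19 were between 0.492 and 0.510. Of the 2155 genes tested on these 4 chromosomes, 63 were called higher in Abl.3 and 114 higher in Abl.4. Without them, 189 of 8355 genes were called higher in Abl.3 and 600 higher in Abl.4. The copy number of chromosomes was not tested.

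Differences also moved with transcript length. In quintiles of the genes by their longest annotated transcript, the median difference was 0.10 in the shortest (up to 1749 bases) and -0.40 in the longest (from 5041 bases). Genes called higher in Abl.3 made up 3.9% of the shortest quintile and 1% of the longest, and genes called higher in Abl.4 6.18% and 9.71%. Both libraries of Abl.3 deviated from the gene means by -0.26 and -0.24 in the longest quintile, and those of Abl.4 by 0.10 and 0.20. The part of length in a given gene's difference was not tested beyond the length-corrected values given with the genes and lists above.

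**Figure D5:**
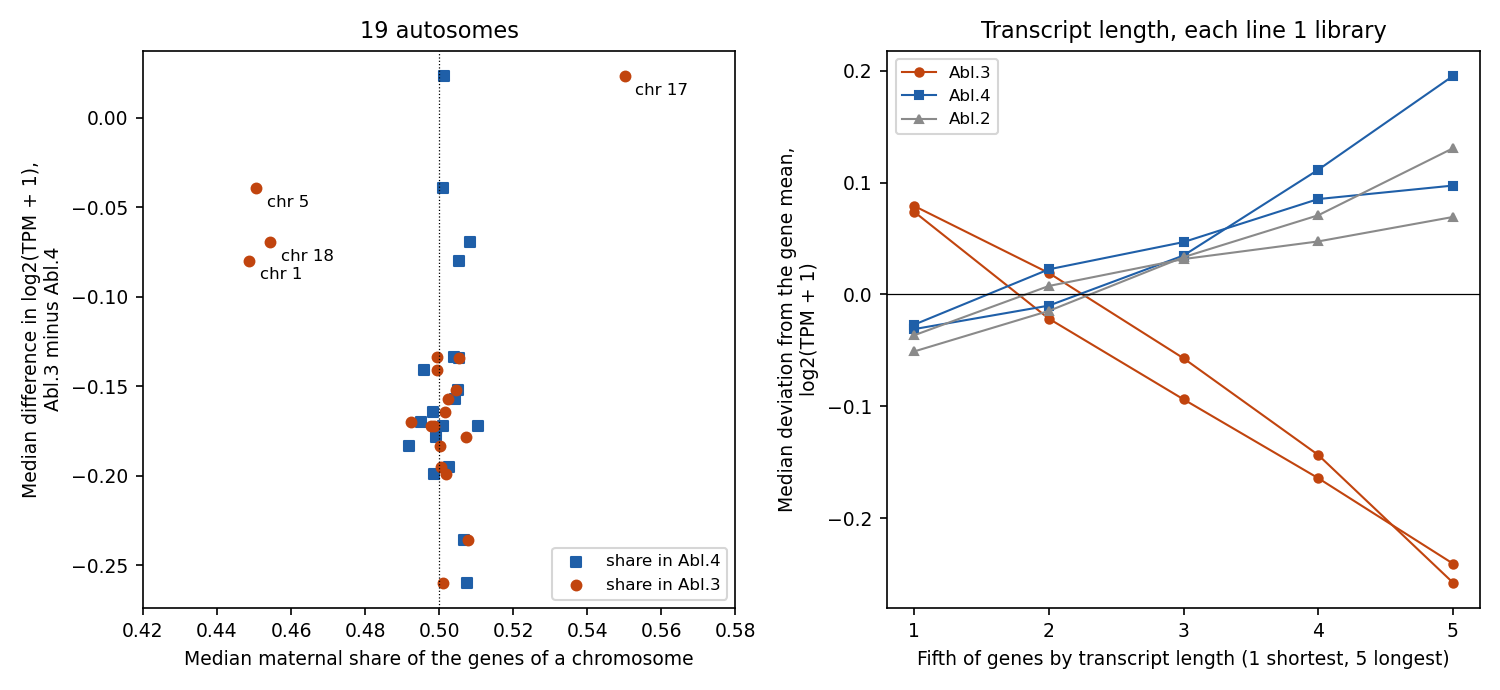
Left, the median difference in log2(TPM + 1) of each of 19 autosomes (y axis) against the median maternal share of its genes (x axis) in Abl.3 (circles) and Abl.4 (squares), where chromosomes 1, 5, 17 and 18 stand apart in Abl.3. Right, the median deviation of each library from the gene means by quintile of transcript length, where the libraries of Abl.3 end at -0.26 and -0.24 and those of Abl.4 at 0.10 and 0.20.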

How the data were processed

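RNA from 3 lines, each with 2 SMART-seq v4 libraries, was analysed. TPM values per gene were deposited by the authors, who obtained them with DESeq2 per the file headers. Counts of the maternal and paternal allele at SNPs within genes were deposited as whole numbers, per the file headers. The deposited fraction of maternal counts per line, per the file headers an average over replicates, was not used here. The submitters' processing notes name STAR 2.5.4a, SAMtools, GATK and DESeq2 without roles, and GRCm38 and mm10 among the builds. Start and end were the same in GENCODE M21 (GRCm38) for 98.2% of 35412 genes compared, and coordinates are those of the deposited table. The kit carries no molecular identifiers, and strand was not used. TPM keep no depth, so no counting interval is given.

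The main test was limma 3.58.1 (R 4.3.3; lmFit, eBayes with trend) on log2(TPM + 1) of all 6 libraries, which share 1 estimate of the spread. It was run on the 11003 genes of all chromosomes whose mean reached 1 TPM, with Benjamini-Hochberg adjustment over all of them, and autosomal genes are reported. A gene was called at an adjusted p below 0.05 and a difference of at least 1. Errors are SE of the fitted difference. Symbols that a spreadsheet had turned into dates (26 genes) were restored by gene ID, and 1884 genes of the table have no name or position. Named genes are the 8 largest differences per direction among called genes with a mean log2 level of at least 5 and separated libraries, up to 4 called members per list by size, and defining members. Other members are named where all calls of a list are given. Some genes that the rule names are not reported here. The genes and lists were chosen with earlier results of these data known. Tests were checked on simulated data. Alternatives were other pseudocounts, filters and scalings, the replicate block, edgeR 4.0.16 and DESeq2 1.42.0 on allelic counts summed over alleles, leaving out each library and, chosen after seeing the data, a loess correction for transcript length and leaving out chromosomes 1, 5, 17 and 18.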

Additional observations from a re-analysis of the deposited data

How the results depend on the processing

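The main counts were 252 genes higher in Abl.3 and 714 higher in Abl.4. With a pseudocount of 5 they were 124 and 354, with a mean of at least 5 TPM 137 and 446, with no minimum difference 1186 and 2820, and with a minimum of 2 they were 81 and 225. Quantile normalisation gave 397 genes higher in Abl.3. The cause of these shifts is the setting's own construction for the filter and the minimum difference, and otherwise was not tested. A pseudocount of 0.1 gave 313 and 876. Each fit without 1 library, which leaves 1 library in its clone, lost some of the main calls in both directions and gained others. Of 75 called genes that the naming rule picked, 68 were called with each library left out, and 61 under every alternative that gave a value except the pseudocount of 5 and the minimum of 2, which lost 17 and 37. With the pseudocount of 5 these included Rtp4, Pdk2, Cd36, Ampd3, Klrb1c and Sdc1. The naming rule took called genes with the largest differences, so the numbers kept among them do not hold for all calls. Id3, with at most 11 allelic counts per library, was reversed with DESeq2 on allelic counts, at -0.49 (adjusted p = 0.841). A fit that took the replicate number as a block gave 255 and 722, of which 252 and 713 were shared with the main calls. Deviations of same-numbered libraries of the clones had a correlation of 0.145 over 10510 genes. With 2 libraries per clone the deviations are mirror images, so both pairs give the same value. It cannot decide whether same-numbered libraries shared a preparation. The number is taken as a name only, and no named call changed with the block. Library preparation, with 2 libraries per clone, and the unknown depth behind the TPM values limit the precision.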

Other observations

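Immunoglobulin genes, a group chosen after its values were seen, differed between the clones in both directions. Of 57 tested, 9 were at 0 in all 4 libraries compared and had entered through Abl.2 alone. Called higher in Abl.3 were 8 and higher in Abl.4 10. Some of these, such as Iglv2 and Ighv2-4, were at 0 in every library of the other clones and so entered only through the clone where they were high, so the counts are not set against the shares of all genes. Ighg2b, the constant region of an IgG heavy chain, was at 123.2 and 117.0 TPM in Abl.3, at 3.48 and 2.64 TPM in Abl.4 and at 0.1 and 0.08 TPM in Abl.2 (limma difference 4.91, adjusted p = 7.36e-06). Among variable segments, Ighv2-9 was at 38.3 and 26.7 TPM in Abl.3 and listed at 0 in both libraries of Abl.4, while Ighv5-2 was at 6.05 and 5.93 TPM against 44.2 and 54.5 TPM. Ighm, the constant region of IgM, was at 3031 and 2743 TPM against 4757 and 4354 TPM and was not called (-0.66). Reads of segments with near copies may be split among them.

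Histone genes named Hist, also chosen after their values were seen, were called mostly in 1 direction. Of 47 genes named Hist, 1 (2.13%) was called higher in Abl.3 and 16 (34%) higher in Abl.4. Some of the 16, such as Hist2h4 and Hist1h4a, reached the threshold only through Abl.4, where they were high. The counts are therefore not set against the shares of all genes. The median difference of the 47 was -0.79, and -0.67 after length correction and -0.51 after quantile normalisation. Of the 47, 10 had a positive difference. Hist1h1c, a linker histone, was at 51.5 and 48.9 TPM against 206.4 and 162.4 TPM, and Hist1h2bg at 9.63 and 16.8 TPM against 107.3 and 80.0 TPM. The gene called higher in Abl.3 was Hist1h2ag, at 41.0 and 31.4 TPM against 18.4 and 13.6 TPM. The most abundant members were not called. Of these, Hist1h4d, Hist1h2ad, Hist1h1b and Hist1h1e had differences of 0.30, 1.23, 0.45 and 0.27, and Hist1h2ae and Hist1h2ab of -0.34 and -0.03. The difference of Hist1h2ad had an SE of 0.91, since its libraries were at 871.8 and 565.1 TPM in Abl.3 and at 899.6 and 98.4 TPM in Abl.4. Genes named Hist are near copies of each other, so that reads may be split among them. Which forms of their transcripts the libraries captured was not tested.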
